A study of Mus musculus with 18 samples.

Results

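The 10 genes described here encode lipoprotein lipase (LPL), its partners and the proteins that take fatty acids up and bind them: Lpl, Gpihbp1, Lmf1, Angptl4, Cd36, Fabp3, Fabp4, Fabp5, Vldlr and Slc27a1. They were taken by symbol from the 52093 symbols of the deposited profiles, and each has 1 row there. Gene expression was measured by RNA-seq in 18 libraries from wild type male mice (strain given as C57BL/6 or C57BL/6J in the labels and as C57BL/6NTac in the study, 16 weeks of age) kept on HFD (a diet rich in fat) over 12 weeks. One label field gives regular chow instead, against the titles and the series' design text. The 3 groups of 6 libraries were mature adipocytes of inguinal white adipose tissue (iWAT), mature adipocytes of epididymal white adipose tissue (eWAT) and whole brown adipose tissue (BAT). The white adipocytes were the floating fraction of a collagenase digest, whereas BAT was frozen as whole tissue, so the depot and the preparation cannot be told apart in a comparison with BAT. No animals on a control diet were compared here.

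LPL is made by adipocytes and folded in their endoplasmic reticulum with the help of LMF1 (lipase maturation factor 1). GPIHBP1, a protein of capillary endothelial cells, carries the enzyme to the vessel lumen, where LPL releases fatty acids from circulating triglyceride, and ANGPTL4 inactivates it. The fatty acids enter the cell with the help of CD36 and the transporter FATP1 (Slc27a1), and fatty acid binding proteins (FABPs) carry them in the cytosol. The VLDL receptor (Vldlr) binds triglyceride-rich particles. Macrophages are known to express Lpl, Cd36, Fabp4 and Fabp5 as well.

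The libraries held 24655056 to 42518483 reads on annotated rows. Levels are given as RPKM (reads divided by the length of the row and by the depth of the library), and differences as log2 fold changes from edgeR with TMM scaling, which sets the bulk of the genes at no change. The summed RPKM of 8 macrophage markers was 28.2 to 54.0 in BAT, 653 to 1247 in iWAT adipocytes and 3309 to 5258 in eWAT adipocytes. All 8 macrophage markers were higher in eWAT than in iWAT adipocytes. The sum of 7 endothelial markers was 88.8 to 197 in BAT, 195 to 556 in iWAT adipocytes and 64.9 to 158 in eWAT adipocytes. In the same order, the adipocyte markers (6 genes) summed to 691 to 902, 2730 to 4052 and 529 to 1871, and the 6 brown adipocyte markers, led by Ucp1, to 2936 to 4299.8, 31.9 to 50.3 and 6.60 to 17.9. The sum of 5 skeletal muscle markers reached 106 in BAT, 16.9 in iWAT adipocytes and 4.94 in eWAT adipocytes, that of 5 mesothelial markers 9.91, 2.70 and 4.96, that of 5 fibroblast and progenitor markers 21.9, 69.7 and 57.5, and that of 4 B and T cell markers 0.653, 0.855 and 0.260. The mesothelial sum of BAT was mostly Lrrn4 (mean 8.30 RPKM). Msln, Upk3b and Wt1 had at most 3 reads in every BAT library and averaged 0.310, 0.637 and 0.201 RPKM in eWAT adipocytes. The fibroblast and progenitor sum of iWAT and eWAT adipocytes was led by Col1a1 (means 31.7 and 30.0 RPKM, 4.47 in BAT). Of these 5 markers, edgeR called 1 higher in iWAT adipocytes than in BAT and 3 higher in BAT. In bulk samples, fewer cells of a type and less RNA per cell cannot be told apart. The labels do not say that the mice of a group were kept or collected apart, and p-values measure only the spread between these samples.

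Within the eWAT group, the libraries of mice 1 and 3 stood apart from the rest. Adipoq, the gene of the adipocyte hormone adiponectin, was at 199 and 150 RPKM in these 2 libraries and at 396 to 579 in the other 4. Cd68, a macrophage marker, was at 680 and 681 against 457 to 547. Each comparison with eWAT adipocytes was therefore also made without them, an alternative chosen after seeing the data. These libraries kept their place in the group.

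Fabp3 had the largest difference of the 10 genes, and the start of the coding sequences shows how alike the FABP genes are. The first 90 coding bases of Fabp4, Fabp3 and Fabp5 (GENCODE vM1, NCBIM37) are printed 5′ to 3′. Capitals in Fabp3 and Fabp5 mark bases identical to Fabp4 in a pairwise alignment of the whole coding sequences, and capitals in Fabp4 mark bases identical to Fabp3.
Fabp4: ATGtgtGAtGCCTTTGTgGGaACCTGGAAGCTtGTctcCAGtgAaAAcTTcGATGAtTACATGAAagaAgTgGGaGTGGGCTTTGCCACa
Fabp3: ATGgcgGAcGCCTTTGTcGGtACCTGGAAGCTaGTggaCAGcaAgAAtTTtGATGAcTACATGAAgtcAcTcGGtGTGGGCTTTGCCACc
Fabp5: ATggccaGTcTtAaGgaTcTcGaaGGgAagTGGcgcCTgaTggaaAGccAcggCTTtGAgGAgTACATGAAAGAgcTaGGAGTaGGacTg
In this stretch, 67 bases of Fabp3 and 49 of Fabp5 were identical to Fabp4. Over the aligned coding sequence, Fabp3 and Fabp4 were 66.5% identical, Fabp4 and Fabp5 62.2%, and Fabp3 and Fabp5 58.3%. The longest run of letters shared by Fabp3 and Fabp4 was 14 bases, that of Fabp4 and Fabp5 12 bases and that of Fabp3 and Fabp5 10 bases. A sequencing read longer than these runs therefore differs between these 3 coding sequences.

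Fabp3 encodes the heart-type FABP, found in tissues that burn much fat. The gene lies at chr4:129985839-129992707 on the plus strand (mm9) and has 4 exons. Its level in BAT was 125 RPKM in the lowest library, 177 at the median and 257 in the highest, from 3334 to 8324 reads. In iWAT adipocytes it was 0.111, 0.306 and 0.411 RPKM, from 3 to 11 reads, and in eWAT adipocytes 0.265, 0.374 and 0.566 RPKM, from 7 to 17 reads. The BAT libraries lay far above all white libraries, and both white groups overlapped near the detection limit. Fabp3 was 965-fold higher in BAT than in iWAT adipocytes (log2 fold change -9.91 ± 0.24 SE, iWAT over BAT, n = 6 per group, adjusted p = 9.29e-14 by edgeR). It was 686-fold higher in BAT than in eWAT adipocytes (-9.42 ± 0.23, adjusted p = 6.12e-14 by edgeR). Between iWAT and eWAT adipocytes it was not tested, because its mean count stayed under 10. The last bases of the Fabp3 row overlap, over 81 bases, the opposite-strand gene Zcchc17, which had 496 to 1589 reads. The kit does not mark the strand, so the few Fabp3 reads of white adipocytes cannot be told apart from reads of Zcchc17. Skeletal muscle, which is known to express Fabp3, was represented by its marker list at up to 106 RPKM in BAT, and its part in the Fabp3 level was not tested. The muscle list sum was lowest in BAT of mouse 2 (1.52 RPKM), where Fabp3 stood at 242 RPKM, the second-highest value of its group.

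Fabp4 encodes the adipocyte FABP, a classic product of fat cells, and was the most abundant of the 10 genes in all 3 tissues. It lies at chr3:10204342-10208576 on the minus strand (mm9), with 4 exons. In iWAT adipocytes the lowest, median and highest levels were 8616, 10567 and 12054 RPKM. In eWAT adipocytes they were 1995, 4063 and 5994 RPKM, and in BAT 4615, 4937 and 5808 RPKM. All iWAT libraries were above all others in RPKM, and the eWAT and BAT libraries overlapped. With TMM scaling, the iWAT and BAT libraries overlapped instead, and all eWAT libraries lay below all of BAT. Fabp4 was 2.61-fold higher in iWAT than in eWAT adipocytes (log2 1.38 ± 0.25, adjusted p = 2.72e-04). The log2 fold change was 1.10 without eWAT mice 1 and 3, whose Fabp4 levels were the lowest of the group (2730 and 1995 RPKM). It was 1.16 (adjusted p = 0.0657) with the libraries of sequencing lane 1 only and 1.78 (adjusted p = 0.00287) with those of lane 2 only, by edgeR. Here and below, lane 1 held iWAT mice 1 and 3 and eWAT mice 2, 3, 4 and 5. Lane 2 held iWAT mice 2, 4, 5 and 16 and eWAT mice 1 and 16. The eWAT libraries of mice 1 and 3 thus fell in different lanes, and their part in the lane values was not tested. Against BAT, Fabp4 was 1.35-fold higher in iWAT adipocytes (log2 0.44 ± 0.13, adjusted p = 0.00542 by edgeR). This call was lost with all samples in 1 fit (adjusted p = 0.0656) and with a replicate block by mouse number (log2 0.42, adjusted p = 0.143). In eWAT adipocytes Fabp4 was 1.90-fold lower than in BAT (log2 -0.92 ± 0.22, adjusted p = 0.00135 by edgeR). Without TMM scaling the log2 fold change was -0.01 (adjusted p = 0.967 by edgeR), and the difference was 1.55-fold without eWAT mice 1 and 3 (log2 -0.63).

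Fabp5 encodes the epidermal-type FABP, which macrophages also make. It lies at chr3:10012589-10016610 on the plus strand (mm9), close to Fabp4. Its lowest, median and highest levels were 177, 194 and 202 RPKM in iWAT adipocytes and 172, 201 and 261 RPKM in eWAT adipocytes. In BAT they were 25.6, 37.1 and 49.4 RPKM. The white groups overlapped and both lay entirely above BAT. Fabp5 was 3.30-fold higher in iWAT adipocytes (log2 1.72 ± 0.15, adjusted p = 3.52e-08) and 3.62-fold higher in eWAT adipocytes (1.86 ± 0.16, adjusted p = 4.36e-08) than in BAT, by edgeR. The difference between the white groups did not pass the test (log2 -0.11 ± 0.09, adjusted p = 0.312 by edgeR). Its 95% interval ran from -0.28 to 0.07. The 2 highest eWAT values, 261 and 223 RPKM, were those of mice 1 and 3, where the macrophage sum was also highest. Several rows of Fabp5 copies (Fabp5l2, Gm14328, Gm6166) followed Fabp5 across the 18 libraries with Pearson's r of 0.986 to 0.993, and the row Gm3601 overlaps Fabp5. The RPKM of Gm14328 averaged 142 in iWAT and 156 in eWAT adipocytes, and 28.5 in BAT. How the authors counted reads that fit several copies is not given in the sources used here, and the level of Fabp5 is uncertain to that extent.

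The balance among the FABPs was compared as a ratio of RPKM in the same library, which needs no scaling between libraries. The row was 1.01 times the longest GENCODE transcript for Fabp4, 1.08 times for Fabp3 and 0.293 times for Fabp5. Multiples between 2 genes, here and below, depend on the lengths of their rows. A ratio compared between tissues uses the same rows in each. Fabp4 exceeded Fabp5 54.2-fold in iWAT and 18.3-fold in eWAT adipocytes, and 137-fold in BAT (geometric means, n = 6). The Fabp5 to Fabp4 ratio was thus 2.96-fold higher in eWAT than in iWAT adipocytes and 7.47-fold higher in eWAT adipocytes than in BAT. It was 2.52-fold higher in iWAT adipocytes than in BAT (exact permutation test, two-sided, adjusted p = 0.00325 for all 3 differences, over 18 ratio tests). The smallest p that 6 against 6 can give is 0.00216. The libraries were permuted as independent of each other, although the iWAT and eWAT libraries share 6 mouse numbers. Without eWAT mice 1 and 3, the eWAT ratio was 2.16-fold above iWAT and 5.44-fold above BAT (exact permutation test, adjusted p = 0.00857 for both). For 1 unit of Fabp3, BAT held 27.4 units of Fabp4, with 19.1 to 39.4 over the libraries. The corresponding figures were 9551 in eWAT and 38491 in iWAT adipocytes, and they rest on 3 to 17 Fabp3 reads per library.

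**Figure D1:**
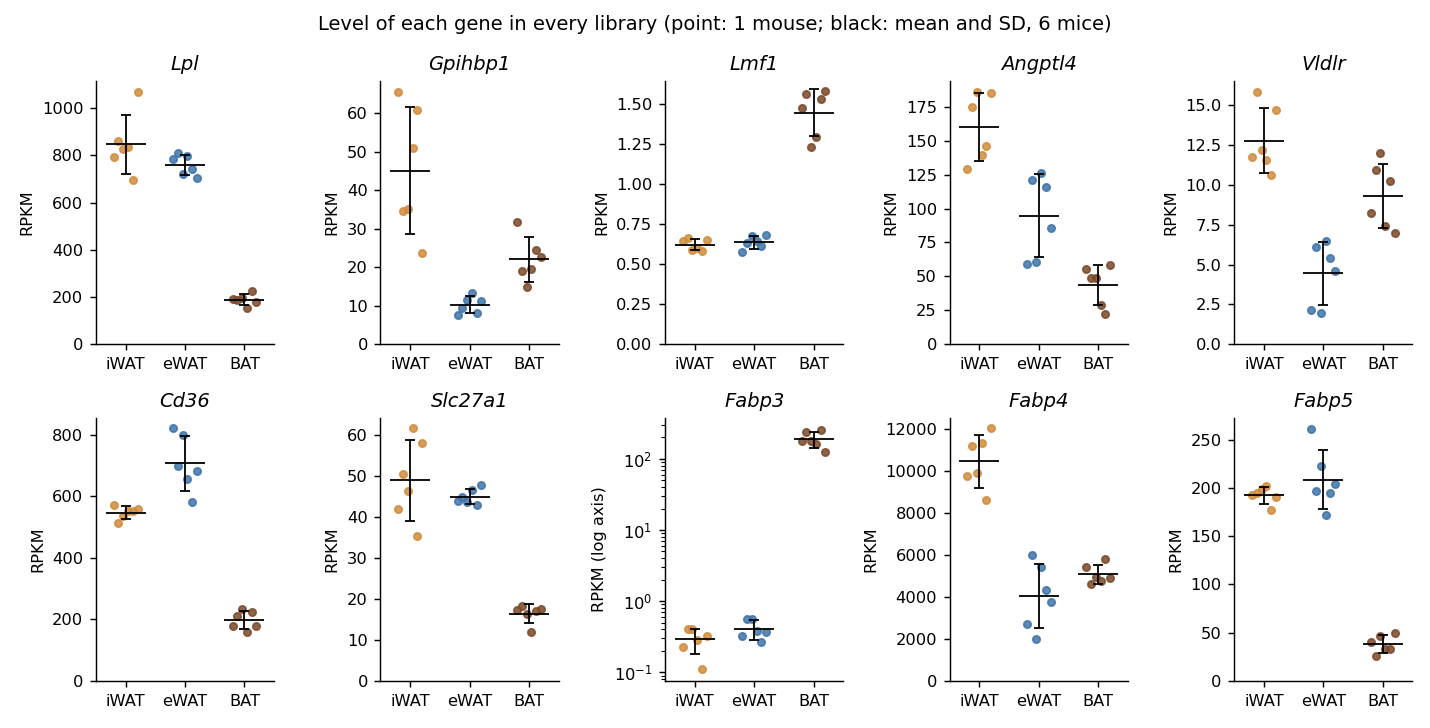
RPKM of the 10 genes in every library of iWAT adipocytes, eWAT adipocytes and BAT. Each point is 1 mouse and the black marks give mean and SD of 6 mice. The axes start at 0 except for Fabp3, which has a log axis. Fabp3 and Lmf1 were highest in BAT, Lpl, Cd36, Slc27a1 and Fabp5 were lowest there, and Gpihbp1, Vldlr and Fabp4 were highest in iWAT adipocytes in mean RPKM.

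Lpl itself was the second most abundant of the 10 genes in both white groups by mean RPKM of the row. By the exon with the highest value, Cd36 stood above it in all 3 tissues. It lies at chr8:71404390-71431347 on the plus strand (mm9), and its row spans 13 exons. The lowest, median and highest levels were 694, 831 and 1069 RPKM in iWAT adipocytes and 705, 762 and 811 RPKM in eWAT adipocytes. In BAT they were 154, 191 and 225 RPKM. The white groups overlapped, and all their libraries were above all of BAT. Lpl was 2.95-fold higher in iWAT adipocytes (log2 1.56 ± 0.13, adjusted p = 3.14e-08) and 2.68-fold higher in eWAT adipocytes (1.42 ± 0.11, adjusted p = 1.18e-08) than in BAT, by edgeR. Between iWAT and eWAT adipocytes it did not pass the test (log2 0.17 ± 0.14, adjusted p = 0.295 by edgeR), with a 95% interval from -0.10 to 0.44. In eWAT adipocytes the Lpl level was nearly constant, with a coefficient of variation of 5.70%, and mice 1 and 3 had 783 and 721 RPKM, within the range of the rest. An antisense row within the gene (AK089741) had 2.33% to 4.47% as many reads as Lpl in each library.

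Lpl was also set against Adipoq in the same library, and this ratio depends on both genes. Adipoq itself averaged 1127 RPKM in iWAT adipocytes, 387 RPKM in eWAT adipocytes and 221 RPKM in BAT, while Lpl did not pass the test between the white groups. The Lpl to Adipoq ratio was 0.752 in iWAT and 2.20 in eWAT adipocytes, and 0.855 in BAT (geometric means, n = 6). The ratio of eWAT adipocytes ran from 1.38 to 4.81 and lay above all other libraries. It was 2.92-fold higher than in iWAT adipocytes and 2.57-fold higher than in BAT (exact permutation test, adjusted p = 0.00325 for both). Without mice 1 and 3 the differences were 2.08-fold and 1.83-fold (exact permutation test, adjusted p = 0.00857 for both). These mice had been set apart in part by their low Adipoq, the lower term of the ratio. The smaller differences without them therefore follow from that choice. The difference between BAT and iWAT adipocytes was 1.14-fold (exact permutation test, adjusted p = 0.0234). The macrophage sum was highest in mice 1 and 3, which had the highest ratios, and its part in them was not tested.

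Lmf1, which LPL needs to fold, was expressed at a low level everywhere. It lies at chr17:25716119-25800072 on the plus strand (mm9). Its lowest, median and highest levels were 0.581, 0.622 and 0.661 RPKM in iWAT adipocytes and 0.573, 0.637 and 0.685 RPKM in eWAT adipocytes, from 303 to 418 reads. In BAT they were 1.23, 1.50 and 1.58 RPKM, from 526 to 1068 reads. All BAT libraries were above all white libraries, the reverse of Lpl. Lmf1 was 3.54-fold higher in BAT than in iWAT adipocytes (log2 -1.82 ± 0.08, iWAT over BAT, adjusted p = 1.03e-11 by edgeR). It was 3.41-fold higher than in eWAT adipocytes (-1.77 ± 0.07, adjusted p = 4.52e-12 by edgeR). Between the white groups the log2 fold change was -0.03 ± 0.07 (adjusted p = 0.752 by edgeR), with a 95% interval from -0.17 to 0.11. The Lmf1 row joins 17729 bases of exons, 3.70 times the longest GENCODE transcript, so its RPKM understates the level of the transcript. In the exon with the highest value, the level was 7.52 RPKM in iWAT adipocytes and 15.1 RPKM in BAT.

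Gpihbp1 encodes the capillary protein that binds LPL. It lies at chr15:75427072-75429911 on the plus strand (mm9), with 4 exons. The lowest, median and highest levels were 23.6, 43.0 and 65.5 RPKM in iWAT adipocytes and 7.57, 10.4 and 13.4 RPKM in eWAT adipocytes. In BAT they were 14.9, 21.1 and 31.8 RPKM. The eWAT libraries lay below all others, and iWAT and BAT overlapped. Gpihbp1 was 4.40-fold higher in iWAT than in eWAT adipocytes (log2 2.14 ± 0.23, adjusted p = 3.90e-06 by edgeR). This difference exceeded that of 99.0% of the genes tested. It was 2.25 with lane 1 only and 2.20 with lane 2 only on the log2 scale. Gpihbp1 was 3.24-fold lower in eWAT adipocytes than in BAT (log2 -1.70 ± 0.17, adjusted p = 1.40e-07 by edgeR).

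For iWAT adipocytes against BAT, Gpihbp1 did not pass the test (log2 0.41 ± 0.21, adjusted p = 0.0867 by edgeR). It did pass without iWAT mouse 16 (log2 0.52, adjusted p = 0.0135) or without BAT mouse 1 (0.53, adjusted p = 0.0358), and without TMM scaling (1.28, adjusted p = 5.90e-05), by edgeR. All 7 endothelial markers were also higher in iWAT than in eWAT adipocytes, with a median log2 fold change of 1.63. Divided by the endothelial sum in the same library, Gpihbp1 was 0.133 in iWAT and 0.101 in eWAT adipocytes, and 0.163 in BAT (geometric means). On this ratio the difference between iWAT and eWAT adipocytes was 1.32-fold (exact permutation test, adjusted p = 0.00599) in place of 4.40-fold. BAT exceeded eWAT adipocytes 1.62-fold on the same ratio (exact permutation test, adjusted p = 0.00325). BAT exceeded iWAT adipocytes 1.22-fold (exact permutation test, adjusted p = 0.0321), a call that was lost without any 1 of 7 libraries, namely iWAT mice 2, 5 and 16 and BAT mice 1, 5, 16 and 17 (adjusted p = 0.0504 to 0.0642, exact permutation test). The endothelial sum was led by Cdh5 and Cldn5 (means 45.6 and 39.9 RPKM in BAT). The median log2 fold change of the 7 markers was -1.46 for eWAT adipocytes over BAT, where Gpihbp1 had -1.70. For iWAT adipocytes over BAT the median was 0.11, where Gpihbp1 had 0.41. Against the median marker, the excess in BAT was thus small over eWAT adipocytes and reversed for iWAT adipocytes.

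Gpihbp1 also followed the endothelial sum from mouse to mouse within a tissue. Over 6 libraries, Pearson's r was 0.98 in eWAT adipocytes (exact permutation p = 0.00556, adjusted p = 0.05 over 27 relations), 0.94 in iWAT adipocytes (exact permutation p = 0.0139, adjusted p = 0.0938) and 0.86 in BAT (exact permutation p = 0.0236, adjusted p = 0.106). Spearman's rho was 0.94, 0.89 and 0.83, with adjusted exact permutation p of 0.15, 0.18 and 0.197. Without the 2 libraries farthest from the median endothelial sum, r was 0.95, 0.99 and 0.95. None of these relations fell below an adjusted p of 0.05. Lpl ran the other way in iWAT adipocytes, where r with the endothelial sum was -0.94 (exact permutation p = 0.00556, adjusted p = 0.05), rho was -0.94 (exact permutation p = 0.0167, adjusted p = 0.15) and r without the 2 farthest libraries was -0.85. This was not particular to Lpl. In iWAT adipocytes r was also negative for Fabp4 (-0.85), Fabp5 (-0.78) and Cd36 (-0.69), with adjusted exact permutation p of 0.113, 0.154 and 0.291. Without the 2 farthest libraries these were -0.46, -0.81 and 0.58. Lpl and Adipoq ranked the iWAT libraries in the same order. Lanes held 2 to 4 libraries of a tissue, too few for values within a lane. Of the 27 relations of Gpihbp1, Lpl, Cd36, Fabp4 and Fabp5 with the endothelial or macrophage list, 1 passed by Pearson's r, that of Fabp5 with the macrophage list in eWAT adipocytes. There the macrophage sum fell into 2 separate sets, at 5258 and 5097 RPKM in mice 1 and 3 and at 3309 to 3681 RPKM in the rest, so no correlation over all 6 libraries is given. Among the other 4 libraries, too few for a test, r was 0.91.

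The ratio of Gpihbp1 to Lpl set the 2 genes against each other. The row was 2.61 times the longest GENCODE transcript for Gpihbp1, 2.55 times for Lpl and 1 times for Angptl4. Of the Gpihbp1 row, 54.8% lay in the GENCODE gene. The multiples between these genes are therefore those of the rows and not of the transcripts. Lpl exceeded Gpihbp1 19.8-fold in iWAT and 75.6-fold in eWAT adipocytes, and 8.76-fold in BAT (geometric means, n = 6). The libraries of eWAT adipocytes, at 59.5-fold to 103-fold, did not overlap with the others. The Gpihbp1 to Lpl ratio was 8.64-fold higher in BAT than in eWAT adipocytes (exact permutation test, adjusted p = 0.00325). It was 3.83-fold higher in iWAT than in eWAT adipocytes (exact permutation test, adjusted p = 0.00325). The difference between BAT and iWAT adipocytes was 2.26-fold (exact permutation test, adjusted p = 0.00835).

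Angptl4, which encodes an inhibitor of LPL and is known as a target of the PPAR factors and of fasting, lies at chr17:33910695-33918520 on the minus strand (mm9), with 7 exons. Its lowest, median and highest levels were 129, 160.5 and 186 RPKM in iWAT and 59.0, 101 and 126 RPKM in eWAT adipocytes, and 22.3, 48.7 and 58.7 RPKM in BAT. In RPKM the 3 groups did not overlap, in the order iWAT, eWAT and BAT, although the lowest eWAT and the highest BAT value (59.0 and 58.7 RPKM) were close, as were the highest eWAT and the lowest iWAT value (126 and 129 RPKM). With TMM scaling the white groups overlapped, as did eWAT and BAT. Angptl4 was 1.70-fold higher in iWAT than in eWAT adipocytes (log2 0.77 ± 0.21, adjusted p = 0.00531 by edgeR). Without eWAT mice 1 and 3 this difference was 0.51 on the log2 scale (adjusted p = 0.0116 by edgeR). It was 0.59 on the log2 scale with lane 1 only (adjusted p = 0.179) and 1.20 with lane 2 only (adjusted p = 0.00477), by edgeR. Against BAT, Angptl4 was 2.41-fold higher in iWAT adipocytes (1.27 ± 0.21, adjusted p = 4.61e-05 by edgeR).

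Between eWAT adipocytes and BAT, Angptl4 did not pass the test (log2 0.53 ± 0.25, adjusted p = 0.0609 by edgeR). It passed without eWAT mice 1 and 3, which had the lowest values of their group at 59.0 and 60.8 RPKM (log2 0.79, adjusted p = 0.00474). Leaving out mouse 1 alone (0.64, adjusted p = 0.0251), mouse 3 alone (0.63, adjusted p = 0.0248) or BAT mouse 18 (0.62, adjusted p = 0.0448) also gave a call, as did DESeq2 (0.55, adjusted p = 0.0363). The Angptl4 to Lpl ratio was 0.189 in iWAT and 0.119 in eWAT adipocytes, and 0.220 in BAT. It was 1.59-fold higher in iWAT than in eWAT adipocytes (exact permutation test, adjusted p = 0.00325), and 1.30-fold without eWAT mice 1 and 3 (adjusted p = 0.0184 by the same test). It was 1.85-fold higher in BAT than in eWAT adipocytes (exact permutation test, adjusted p = 0.0268), a difference that missed the threshold without eWAT mice 1 and 3 (1.51-fold, adjusted p = 0.121) and without eWAT mouse 1 (adjusted p = 0.0504), BAT mouse 1 (adjusted p = 0.0504) or BAT mouse 18 (adjusted p = 0.0527), by the same exact permutation test. The ratio in BAT and iWAT adipocytes did not differ beyond the spread (1.17-fold, exact permutation test, adjusted p = 0.446). Without BAT mouse 17 it did (log2 difference -0.45, iWAT over BAT, exact permutation test, adjusted p = 0.0219).

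**Figure D2:**
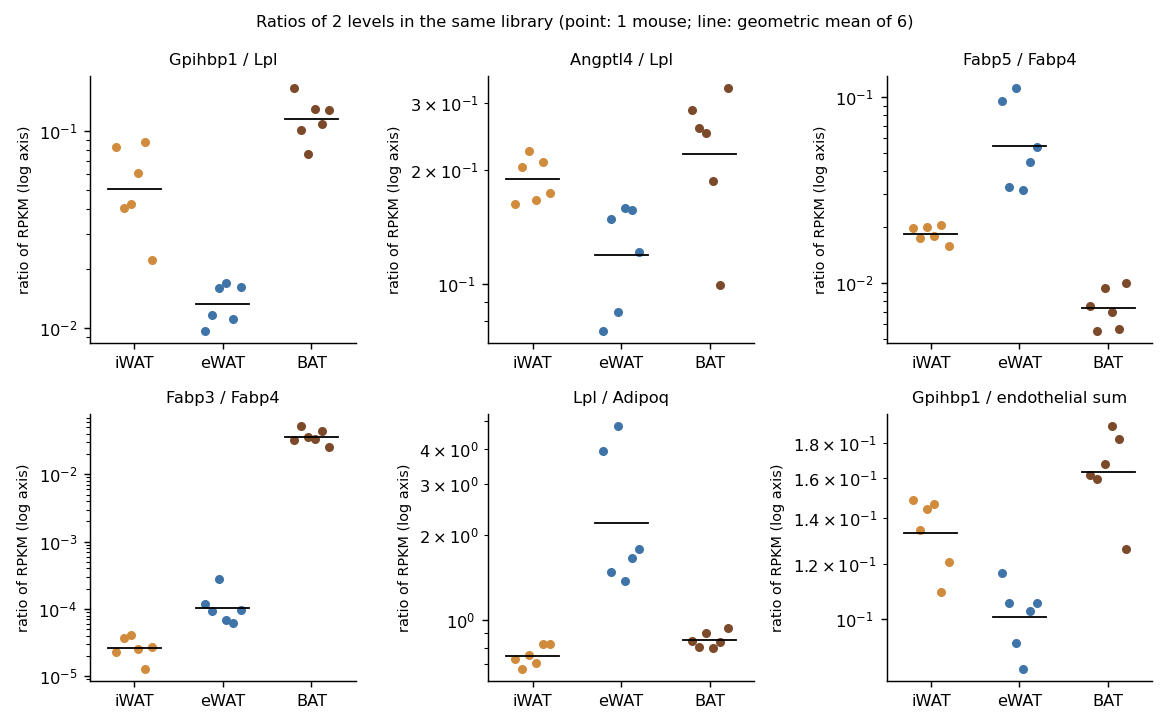
Ratios of RPKM values within a library, on log axes, by tissue. Each point is 1 mouse and the line is the geometric mean of 6. The Gpihbp1 to Lpl ratio was lowest in eWAT adipocytes (0.0132) and highest in BAT (0.114), the Fabp5 to Fabp4 ratio was highest in eWAT adipocytes (0.0547), and the 2 eWAT points at the top of the Lpl to Adipoq plot are mice 1 and 3.

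Vldlr, a receptor for triglyceride-rich lipoproteins, lies at chr19:27290974-27328721 on the plus strand (mm9), with 18 exons. Its lowest, median and highest levels were 10.6, 12.0 and 15.8 RPKM in iWAT and 1.94, 5.00 and 6.45 RPKM in eWAT adipocytes, and 7.02, 9.27 and 12.0 RPKM in BAT. All eWAT libraries were below all others, and iWAT and BAT overlapped. Vldlr was 2.89-fold higher in iWAT than in eWAT adipocytes (log2 1.53 ± 0.29, adjusted p = 3.73e-04 by edgeR), and 2.26-fold without eWAT mice 1 and 3 (log2 1.18). The log2 difference was 1.27 with lane 1 only and 2.01 with lane 2 only, each past the threshold. Vldlr was 3.15-fold lower in eWAT adipocytes than in BAT (-1.66 ± 0.27, adjusted p = 4.32e-05 by edgeR). The size of this difference was smaller without scaling (log2 -0.75, adjusted p = 0.0126 by edgeR). It was also smaller in the exon with the highest value (log2 ratio -1.08, beside -1.68 for the row). Between iWAT adipocytes and BAT the test was not passed with TMM scaling (-0.14 ± 0.14, adjusted p = 0.377 by edgeR). Without scaling the sign turned and Vldlr was called higher in iWAT adipocytes (log2 0.70, adjusted p = 2.62e-04 by edgeR). The sign also turned in the exon with the highest value (log2 ratio 0.45, beside -0.16 for the row), so no direction can be given for this pair.

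Cd36 encodes the fatty acid translocase, a membrane protein of adipocytes, endothelial cells and macrophages. It lies at chr5:17287508-17394777 on the minus strand (mm9). Its lowest, median and highest levels were 513, 551 and 571 RPKM in iWAT and 582, 691 and 822 RPKM in eWAT adipocytes, and 159, 194 and 234 RPKM in BAT. The 3 groups did not overlap. Cd36 was the 1 gene of the 10 that passed the test as higher in eWAT than in iWAT adipocytes, by 1.29-fold (log2 -0.36 ± 0.11, iWAT over eWAT, adjusted p = 0.0106 by edgeR). The 2 highest eWAT values, 822 and 800 RPKM, came from mice 1 and 3, and without them the log2 difference was -0.27 (adjusted p = 0.0295 by edgeR). Within lane 1 it was -0.29 (adjusted p = 0.365) and within lane 2 -0.43 (adjusted p = 0.119), neither past the threshold, by edgeR. The macrophage sum was highest in the same 2 eWAT libraries. Its relation with Cd36 over the 6 libraries did not pass (exact permutation test, adjusted p = 0.105), r was 0.38 among the other 4, and the part of macrophages in the Cd36 level was not tested. Against BAT, Cd36 was 1.82-fold higher in iWAT adipocytes (0.87 ± 0.11, adjusted p = 2.37e-06) and 2.39-fold higher in eWAT adipocytes (1.26 ± 0.13, adjusted p = 3.41e-07), by edgeR.

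Slc27a1 encodes FATP1, a fatty acid transporter with acyl-CoA synthetase activity. It lies at chr8:74092781-74111201 on the plus strand (mm9), with 12 exons. Its lowest, median and highest levels were 35.5, 48.5 and 61.8 RPKM in iWAT and 43.0, 44.5 and 47.9 RPKM in eWAT adipocytes, and 12.0, 17.1 and 18.3 RPKM in BAT. The eWAT values fell inside the iWAT range, and BAT lay below both. Slc27a1 was 1.98-fold higher in iWAT adipocytes (log2 0.98 ± 0.13, adjusted p = 6.26e-06) and 1.83-fold higher in eWAT adipocytes (0.87 ± 0.07, adjusted p = 2.69e-08) than in BAT, by edgeR. The white groups differed by 0.14 ± 0.13 on the log2 scale (adjusted p = 0.360 by edgeR), with a 95% interval from -0.12 to 0.39.

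Set side by side, the 10 genes split in different ways in the 3 comparisons. Between iWAT and eWAT adipocytes, 9 of the 10 genes were tested and 5 were called, 4 of them higher in iWAT (Gpihbp1, Vldlr, Fabp4 and Angptl4) and 1 higher in eWAT (Cd36). Of all genes tested, 68.6% were called, 34.1% higher in iWAT and 34.5% higher in eWAT adipocytes. The count fell to 2 of these genes within lane 1 and to 4 within lane 2. Calls fell for all genes as well, to 7300 of 19450 tested in lane 1 and 9923 of 19830 in lane 2, from 13454 of 19623. These subsets hold fewer libraries. Between iWAT adipocytes and BAT, 8 of 10 were called, 6 higher in iWAT adipocytes (Lpl, Angptl4, Cd36, Fabp4, Fabp5 and Slc27a1) and 2 higher in BAT (Lmf1 and Fabp3). The shares of all genes were 75.3% called, 38.1% higher in iWAT adipocytes and 37.2% higher in BAT. In the comparison of eWAT adipocytes with BAT, 9 of 10 were called, 4 higher in eWAT adipocytes (Lpl, Cd36, Fabp5 and Slc27a1) and 5 higher in BAT (Gpihbp1, Lmf1, Fabp3, Fabp4 and Vldlr). Of all genes, 82.5% were called, 41.1% higher in eWAT adipocytes and 41.4% higher in BAT. Called in either direction, the shares among the 10 genes were roughly those of all genes. By direction, 1 of 9 genes was higher in eWAT than in iWAT adipocytes, beside 34.5% of all genes. Between iWAT adipocytes and BAT, 6 and 2 of 10 were higher in each, beside 38.1% and 37.2%. Between eWAT adipocytes and BAT the directions were near the background. Whether the 10 genes depart from it was not tested. The comparisons share their groups, so they are not independent of each other. The median log2 fold change of the genes tested was 0.17 between iWAT and eWAT adipocytes, 0.65 between iWAT adipocytes and BAT and -0.20 between eWAT adipocytes and BAT, against 0.00, 0.01 and -0.02 for all genes.

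The scaling matters for each difference from BAT. Without TMM scaling, the median difference of all genes (log2) was 0.87 for iWAT adipocytes over BAT and 0.89 for eWAT adipocytes over BAT, and the 10 genes moved by about as much. The split of all genes called then became 13703 higher in iWAT adipocytes and 3054 higher in BAT, in place of 7528 and 7336. For eWAT adipocytes it became 12965 and 4061, in place of 8243 and 8318. Fabp3 and Lmf1 remained higher in BAT, and Lpl, Cd36, Fabp5 and Slc27a1 higher in the white adipocytes, under either scaling. The BAT libraries were sequenced on lanes 3 and 4 and the white ones on lanes 1 and 2, so a lane effect and a tissue effect cannot be told apart there.

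**Figure D3:**
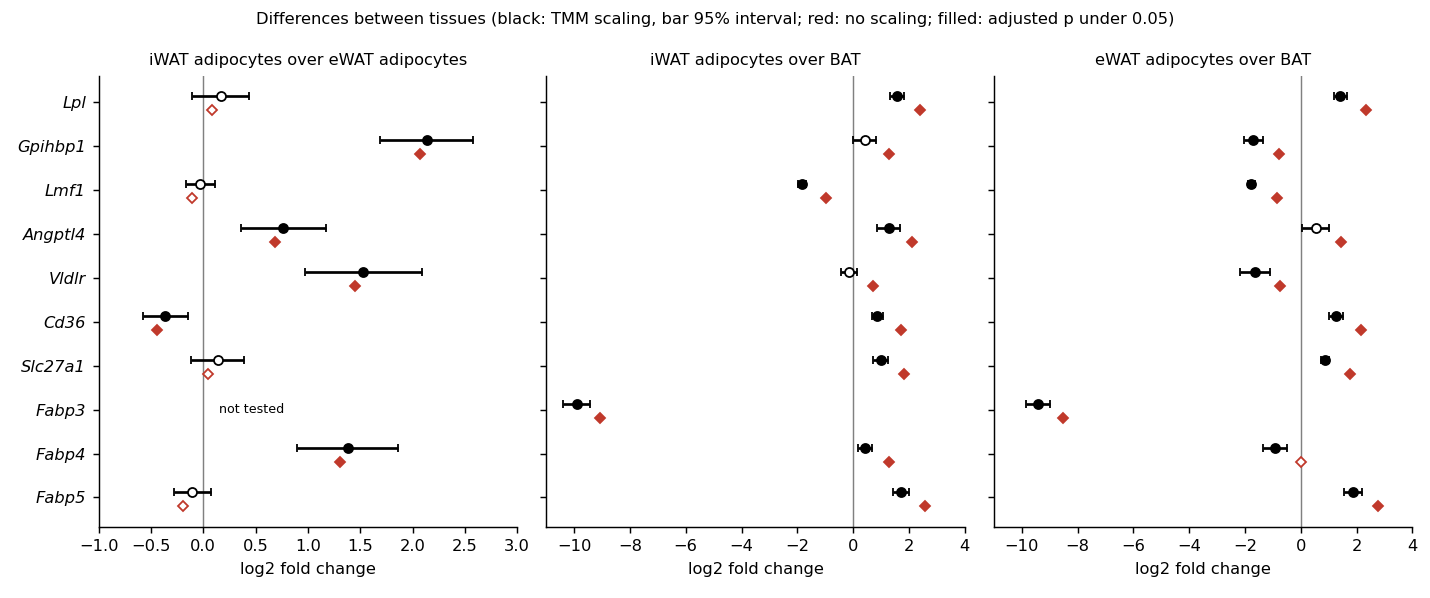
Log2 fold changes of the 10 genes in the 3 comparisons. Black points give edgeR with TMM scaling with bars for the 95% interval, red diamonds the same test without scaling, and filled symbols mark an adjusted p under 0.05. Fabp3 lies at -9.91 and -9.42 against BAT, and Vldlr between iWAT adipocytes and BAT changes sign with the scaling (-0.14 and 0.70).

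The promoters were looked up for short sequence motifs because Fabp3 and Lmf1 were higher in BAT while Cd36 was lower. RefSeq entries (GRCm38.p6, 250 bases before to 50 after the start) were matched by symbol for 5 of the 10 genes: Lmf1, Cd36, Fabp3, Vldlr and Slc27a1. Lpl, Gpihbp1, Angptl4, Fabp4 and Fabp5 had no entry. The motifs searched on both strands were the half-site AGGTCA of many nuclear receptors such as the PPARs, the TATA box TATAAA, the CCAAT box and the GC box GGGCGG. Matches are in capitals, and no matches overlap.
Fabp3, chr4:130308488-130308787, plus strand: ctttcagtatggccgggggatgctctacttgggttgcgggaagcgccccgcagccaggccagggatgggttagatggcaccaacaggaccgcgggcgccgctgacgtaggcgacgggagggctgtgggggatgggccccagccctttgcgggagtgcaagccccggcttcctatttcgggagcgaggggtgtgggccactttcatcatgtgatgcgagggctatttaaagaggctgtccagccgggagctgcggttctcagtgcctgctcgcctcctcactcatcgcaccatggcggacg
Lmf1, chr17:25578924-25579223, plus strand: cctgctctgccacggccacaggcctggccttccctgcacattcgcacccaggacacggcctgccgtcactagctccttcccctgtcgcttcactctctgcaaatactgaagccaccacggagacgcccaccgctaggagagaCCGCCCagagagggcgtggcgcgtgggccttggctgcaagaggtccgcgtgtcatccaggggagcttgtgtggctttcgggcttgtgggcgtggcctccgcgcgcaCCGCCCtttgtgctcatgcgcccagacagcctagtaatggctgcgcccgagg
Cd36, chr5:17835847-17836146, minus strand: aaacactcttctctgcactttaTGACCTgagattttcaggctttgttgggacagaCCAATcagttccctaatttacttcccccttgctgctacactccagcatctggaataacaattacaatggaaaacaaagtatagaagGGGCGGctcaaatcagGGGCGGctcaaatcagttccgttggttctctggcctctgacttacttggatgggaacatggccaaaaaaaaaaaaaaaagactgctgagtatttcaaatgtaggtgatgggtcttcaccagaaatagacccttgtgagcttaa
Fabp3 held none of the 4 motifs, Lmf1 held 2 matches of GGGCGG, and Cd36 held 1 of AGGTCA, 1 of CCAAT and 2 of GGGCGG. The entries of Slc27a1, which was also lower in BAT, and of Vldlr are not printed, and none of them held AGGTCA or TATAAA. Of 32851 mouse promoters of this length, 16.3% hold AGGTCA, 13.6% TATAAA, 37.4% CCAAT and 35.7% GGGCGG. A match is a description of the letters only.

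Among the libraries of eWAT adipocytes, the 10 genes did not move alike. Fabp4, Angptl4 and Vldlr were lowest in mice 1 and 3, as was Adipoq. Vldlr stood at 2.18 and 1.94 RPKM there and at 4.58 to 6.45 RPKM in the other 4 libraries. Cd36 and Fabp5 were highest in the same 2 mice. Lpl, at 783 and 721 RPKM, Gpihbp1, at 7.57 and 11.4 RPKM, and Slc27a1, at 44.0 and 43.6 RPKM, did not set these mice apart from the rest of the group. The spread over the 6 mice was widest for Vldlr (coefficient of variation 44.1%) and Fabp4 (38.1%) and narrowest for Slc27a1 (4.20%). In iWAT adipocytes the widest spread was that of Fabp3 (38.6%), which rests on few reads, and Gpihbp1 (36.7%), and the narrowest that of Cd36 (3.70%).

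**Figure D4:**
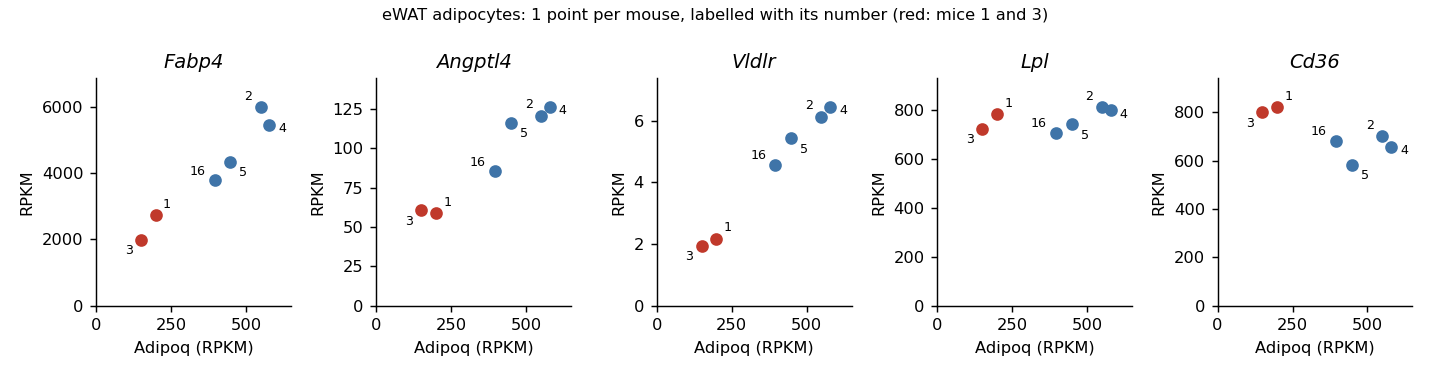
Levels of Fabp4, Angptl4, Vldlr, Lpl and Cd36 against Adipoq (all in RPKM) in the 6 libraries of eWAT adipocytes, labelled with the mouse number. Mice 1 and 3 (red) have the lowest Adipoq, Fabp4, Angptl4 and Vldlr and the highest Cd36, while their Lpl (783 and 721 RPKM) lies among the others.

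The other genes of the pathway were read as 3 lists. Of 17 genes for the processing, anchoring and cofactors of LPL, 15 were tested. Between iWAT and eWAT adipocytes 6 were higher in iWAT, 7 higher in eWAT and 2 did not pass (median log2 fold change -0.33), where 34.1% and 34.5% of all genes were higher in iWAT and eWAT. Pcsk6, a proprotein convertase, was higher in iWAT (log2 2.00 ± 0.26, adjusted p = 1.93e-05), and Lrp8, a receptor of the LDL receptor family, higher in eWAT (-2.53 ± 0.34, adjusted p = 2.51e-05), by edgeR. Against BAT, 11 were higher in iWAT adipocytes and 3 lower (median 1.02), beside 38.1% and 37.2% of all genes. In eWAT adipocytes 9 were higher and 3 lower (median 1.25), beside 41.1% and 41.4% of all genes.

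Sdc1, which encodes the heparan sulfate proteoglycan syndecan 1, had the largest difference from BAT in this list. Its level was 9.24 to 18.8 RPKM in iWAT and 30.6 to 52.9 RPKM in eWAT adipocytes, and 0.298 to 0.463 RPKM in BAT. It was 23.6-fold (log2 4.56 ± 0.19, adjusted p = 1.22e-11) and 73.3-fold (6.19 ± 0.15, adjusted p = 8.01e-14) higher in iWAT and eWAT adipocytes than in BAT, by edgeR. Lrp8 was also higher in eWAT adipocytes than in BAT (3.82 ± 0.35, adjusted p = 6.57e-08 by edgeR). Apoc2, the cofactor that LPL needs, had at most 3 reads in any BAT library and 20 to 54 in iWAT adipocytes, with 12 reads in all against 184. On summed reads with TMM scaling it was 10.5-fold higher in iWAT adipocytes than in BAT (exact 95% interval 5.88 to 20.7) and 13.3-fold higher in eWAT adipocytes (7.49 to 26.1), where the intervals cover counting error only. Apoa5 had 0 reads in all libraries and Apoc3 at most 12.

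Of 16 other genes for fatty acid transport, binding and activation, 10 or 11 had enough reads for a test. Between iWAT and eWAT adipocytes 3 were higher in iWAT and 6 higher in eWAT (median log2 fold change -0.52), where the shares of all genes were 34.1% and 34.5%. The fatty acid transporter gene Slc27a6 (-2.56 ± 0.23, adjusted p = 1.12e-06) and the brain-type FABP gene Fabp7 (-2.30 ± 0.26, adjusted p = 6.87e-06) were higher in eWAT, by edgeR. Slc27a6 was at 0.0988 to 0.253 RPKM in iWAT and 0.688 to 1.56 RPKM in eWAT adipocytes, and 0 to 0.0699 RPKM in BAT. Against BAT, 3 were higher in iWAT adipocytes and 3 in BAT (median -0.14; all genes 38.1% and 37.2%), and 6 were higher in eWAT adipocytes and 4 in BAT (median 0.24; all genes 41.1% and 41.4%). Slc27a6 (5.06 ± 0.47, adjusted p = 8.25e-08) in eWAT and Fabp7 (2.40 ± 0.38, adjusted p = 3.24e-05) in iWAT adipocytes were higher than in BAT, by edgeR.

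Slc27a2, which encodes the fatty acid transporter FATP2, showed a contrast of the same kind as Fabp3. It was at 7.51 to 16.7 RPKM in BAT, from 658 to 2380 reads, and had at most 3 reads in any iWAT and 1 in any eWAT library. On summed reads with TMM scaling, 8861 in BAT against 8 and 3, the ratio of BAT to iWAT adipocytes was 1615 (exact 95% interval 819 to 3742) and that of BAT to eWAT adipocytes 4639 (1587 to 22498), again for counting error only. The edgeR test called it in both comparisons (adjusted p = 2.29e-12 and 4.37e-13). Slc27a5, Fabp1, Fabp2 and Fabp6 had at most 3 reads in every library of all 3 tissues, and so had Acsl6 in the white adipocytes.

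Of 9 transcription factors and coactivators of these genes, 8 were higher in iWAT than in eWAT adipocytes and 1 did not pass (median log2 fold change 0.76). Of all genes, 34.1% were higher in iWAT and 68.6% called in either direction. The largest differences were those of Ppargc1a, a coactivator of mitochondrial genes (1.70 ± 0.24, adjusted p = 4.61e-05), and Ppara, a nuclear receptor for fatty acids (1.52 ± 0.28, adjusted p = 3.11e-04), by edgeR. Against BAT, 4 were higher in iWAT adipocytes and 3 in BAT (median -0.05; all genes 38.1% and 37.2%), and 2 were higher in eWAT adipocytes and 6 in BAT (median -0.38; all genes 41.1% and 41.4%). Ppara was at 34.3 to 58.6 RPKM in BAT, 0.855 to 1.31 RPKM in iWAT adipocytes and 0.120 to 0.537 RPKM in eWAT adipocytes. It was 56.9-fold and 161-fold higher in BAT (adjusted p = 2.65e-13 and 8.31e-12 by edgeR). Ppargc1a was 12.3-fold and 39.4-fold higher in BAT (adjusted p = 1.96e-11 and 1.26e-11 by edgeR).

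The pattern over the 18 libraries was compared with that of about 14155 other genes with a mean of at least 1 RPKM, by Pearson's r of log2(TMM-scaled RPKM + 0.1). These values are descriptions, since libraries of a tissue share their tissue. Fabp3 was most like Hadha (r = 0.997), a gene of mitochondrial fatty acid oxidation, followed by Letmd1 and Coq10a (both 0.996). Letmd1 (0.996) was also closest to Lmf1, with Fastk (0.996) and Ndufs8 (0.995), and Lmf1 and Fabp3 had r = 0.994 with each other. Gpihbp1 was most like Sema3g (0.990), Sept4 (0.987) and Robo4 (0.986), of which Robo4 is an endothelial gene. Fabp4 was most like Cd59a (0.988), Acbd4 (0.987) and Mgll (0.980), the monoglyceride lipase. Vldlr was most like Mme (0.993), Acsl1 (0.991) and 1600014C10Rik (0.988).

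The genes lower in BAT had other neighbours. Lpl was most like Gpt2 (0.990), Atxn10 (0.990) and Naaa (0.989), and Cd36 most like Man1a2 (0.985), Trim35 (0.984) and Sec24b (0.984). Slc27a1 had lower values, with Tbcd (0.957), Ttll1 (0.953) and Dhdds (0.949). Angptl4 had the lowest, with Hist1h1e (0.942) and the immunoglobulin genes Ighm (0.931) and Igh-VX24 (0.928). The nearest rows to Fabp5 were its copies Gm6166 (0.993), Gm14328 (0.989) and Fabp5l2 (0.986), named above for shared reads. The lowest value between 2 of the 10 genes was that of Lpl and Lmf1 (r = -0.963).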

How the data were processed

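The labels gave the tissue of each of the 18 libraries. The authors isolated total RNA (RIN above 8), made libraries with a NEBNext Ultra kit, which does not mark the strand, and mapped reads to mm9. Their processing notes name cutadapt 1.16 and HISAT2 2.1.0, while the counting program and annotation are not given in the sources used here. The deposited files hold, for each of 53445 rows, a whole-number read count and the RPKM that the authors derived from it. They also hold a deposited signal per row and exon, of which the highest exon value was used to check levels. Where a symbol had several rows, that of highest mean RPKM stood for it.

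Each pair of tissues was compared on its own 12 libraries with edgeR 4.0.16 (quasi-likelihood test, TMM, two-sided) in R 4.3.3, at a mean count of 10 or more, with Benjamini-Hochberg adjustment over all genes tested and a threshold of 0.05. The SE was derived from the F statistic. The fits were tested on simulated data. Ratios used RPKM of the same library with exact permutation tests over 18 tests, and correlations used log2 TMM-scaled RPKM over 27 relations. For genes with at most 3 reads in every library of a group, summed reads were compared with an exact binomial interval, which covers counting error only. Alternatives were DESeq2 1.42.0, limma 3.58.1 on log2 RPKM, other scaling and filters, sequencing lanes, a replicate block and leaving out libraries.

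The pathway genes named were, for each list and comparison, the 2 called genes with the largest change, and any with at most 3 reads in every library of a group. For likeness, the 3 genes with the highest r were named. The genes, lists and rules were chosen with earlier results of these data known. Sequences came from RefSeq (GRCm38.p6) and GENCODE vM1.

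The numbers in the titles were read as mouse numbers, which no other label states. Inguinal and epididymal libraries share 6 numbers, and BAT shares 4 with them. Deviations of same-numbered libraries from their group means correlated at -0.23 to 0.37 between the white groups, at -0.14 to 0.10 between iWAT adipocytes and BAT and at -0.04 to 0.06 between eWAT adipocytes and BAT.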

Additional observations from a re-analysis of the deposited data

Results flagged for a closer look

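Slc27a1 in BAT of mouse 16, at 12.0 RPKM, lay far below the other 5 BAT libraries (16.3 to 18.3 RPKM). It was the 1 value so marked among 30 groups of 6 libraries (10 genes in 3 tissues), where chance marks about 1.5. With TMM scaling, Slc27a1 was at 19.0 in this library and at 21.9 to 23.9 in the others. The same library was the lowest BAT library for Lpl (154) and Cd36 (159) in RPKM as deposited, whereas with TMM scaling other BAT libraries were lower for both.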

How the results depend on the processing

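The number of these genes called moved by over 1.5 times within lanes only. Between iWAT and eWAT adipocytes it was 2 in lane 1 (2 higher in iWAT, 0 higher in eWAT), where 7300 of all genes were called in place of 13454. In lane 2 it was 4, with 0 higher in eWAT, and 9923 of all genes were called. These subsets hold fewer libraries. Leaving out 1 library gave 5 in each case (4 and 1 by direction, 12667 to 13562 of all genes), 8 to 9 for iWAT adipocytes and BAT (6 to 7 and 2, 14434 to 14833 of all genes) and 9 to 10 for eWAT adipocytes and BAT (4 to 5 and 5, 16270 to 16552 of all genes). In a fit with a replicate block by mouse number, 12836, 12555 and 15149 of all genes were called, in the order of the comparisons. The block rests on 4 shared mice against BAT, and among the 10 genes it changed no call other than that of Fabp4 between iWAT adipocytes and BAT. The sign of Vldlr between iWAT adipocytes and BAT turned without scaling (0.70) and with limma on log2(RPKM + 0.1) (0.47) or log2(RPKM + 1) (0.43), since unscaled RPKM sets the median of all genes above 0. Differences near 0 also changed sign between the white groups, for Lmf1 with no filter beyond 1 read (0.00), in lane 2 (0.03) and without iWAT mouse 5 (0.01; -0.06 to 0.01 over the libraries left out), and for Fabp5 in lane 1 (0.01). The cause was not tested. Gpihbp1 between iWAT adipocytes and BAT was called with limma (0.98 and 0.95), and with no filter beyond 1 read (0.51). Angptl4 between eWAT adipocytes and BAT was called with limma (1.13 and 1.11), without scaling (1.43) and with no filter beyond 1 read (0.63).

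Of 18 ratio tests, 17 passed, and 15 to 17 with 1 library left out. By the difference in medians, Angptl4 to Lpl between eWAT adipocytes and BAT (exact permutation test, adjusted p = 0.0755) and Gpihbp1 to the endothelial sum between iWAT adipocytes and BAT (adjusted p = 0.108) did not pass. The 1 relation that passed among 27 fell to 0 with Cdh5 or Cd68 alone in place of the lists. With RPKM as deposited, r changed sign for Lpl with the endothelial list in BAT (0.16), Cd36 with the endothelial (0.37) and macrophage (0.19) lists in iWAT adipocytes and Fabp4 with the macrophage list in BAT (0.11), and none of these passed. In the exon with the highest value, 28 of 30 differences kept their direction, the exceptions being Lmf1 between the white groups and Vldlr between iWAT adipocytes and BAT. Depth limits Fabp3 in white adipocytes, at 3 to 17 reads.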
